A study of Mus musculus with 23 samples.

Results

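C130080G10Rik, B230312C02Rik, Gm12199 and 0610009L18Rik are 4 long noncoding RNA (lncRNA) genes of the mouse. They were chosen because their levels in quadriceps muscle were lower with corticosterone than with vehicle, so their values in that comparison are given as a description and without a test. They are 4 of 55573 genes in the table of counts, and all 4 passed the filter on low counts described further on. Quadriceps RNA came from C57Bl6 mice (C57BL/6J in the study's methods) of both sexes, aged 8 to 10 weeks, that carried a slow-release pellet under the skin of the neck for 14 days and were fasted for 5 hours before they were killed. Corticosterone is the main glucocorticoid of mice. Its pellet held 50 mg corticosterone and 50 mg cholesterol and was given to 6 male and 5 female mice with data here, while 6 male and 6 female vehicle mice had a pellet of 100 mg cholesterol. All animals therefore carried a cholesterol pellet, and cholesterol content differed between treated and vehicle mice. A mouse is named by its sex and number, F1 or M9 for example.

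A lncRNA is a transcript that is spliced and often polyadenylated like a messenger RNA but does not encode a known protein. Many lie close to the start of a protein-coding gene and are transcribed away from it, from a shared or adjoining promoter, and others run through a gene on the opposite strand. Some act on the gene beside them and some act at a distance, and for many no function is known. Glucocorticoids act through the glucocorticoid receptor (GR), a transcription factor that raises some genes and lowers others, and prolonged exposure wastes skeletal muscle.

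All 4 genes lie on chromosomes 2 and 11 of GRCm38 (mm10). Positions and distances in this paragraph are those of the GENCODE annotation. C130080G10Rik (ENSMUSG00000092397, chr2:114054335-114064868, plus strand, biotype antisense, 5 annotated transcripts) starts 787 bp from the start of Actc1, which encodes cardiac alpha-actin, the sarcomeric actin of heart and of immature skeletal muscle. The pair is divergent, since Actc1 runs on the minus strand in the other direction. 0610009L18Rik (ENSMUSG00000043644, chr11:120348678-120351190, plus strand, biotype bidirectional promoter lncRNA, 2 exons) starts 136 bp from Actg1, which encodes cytoplasmic gamma-actin, and is also divergent to it. Gm12199 (ENSMUSG00000087080, chr11:50717670-50718915, minus strand, biotype antisense, 2 exons) lies inside Adamts2, the gene of a procollagen N-proteinase, on the opposite strand. It sits in a gap of 69015 bp between exons of Adamts2, and 0 bases of its exons overlap an Adamts2 exon. B230312C02Rik (ENSMUSG00000084843, chr2:180370491-180385885, minus strand, biotype lincRNA, 7 exons) has no protein-coding gene close by. The nearest are Gata5, a transcription factor of heart and endoderm, at 35792 bp and Slco4a1, an organic anion transporter, at 70360 bp. Upstream of it, on the opposite strand, are the muscle microRNA genes Mir1a-1 at 3163 bp and Mir133a-2 at 12494 bp.

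**Figure D1:**
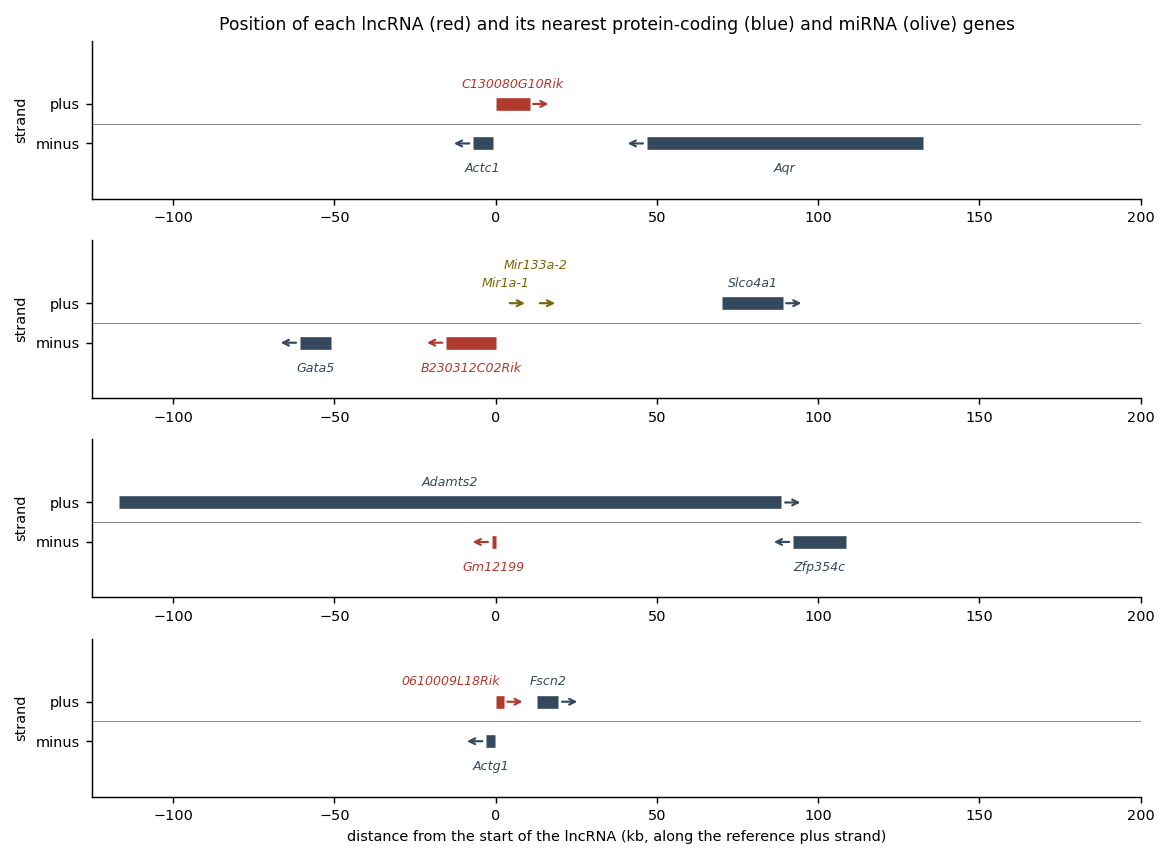
The 4 lncRNAs (red) are drawn to scale with their nearest protein-coding genes (blue) and the neighbouring microRNA genes (olive), as distance in kb from the start of the lncRNA, by strand and with arrows in the direction of transcription. C130080G10Rik and 0610009L18Rik point away from the start of an actin gene, Gm12199 lies within Adamts2, and Rufy1, 286545 bp from Gm12199, is outside the range drawn.

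The sequences at the starts of these genes are given because 2 of the lncRNAs start close to an actin gene on the opposite strand. The promoter windows overlap only for 0610009L18Rik and Actg1. RefSeq promoter windows (GRCm38.p6, 250 bases before to 50 after the RefSeq start) were found for 2 of the 4 lncRNAs. In the window of C130080G10Rik (chr2:114054146-114054445, plus strand) the capitals mark a match to the MEF2 box, a binding motif of a family of muscle transcription factors, at positions -177 to -168 from the RefSeq start. Between the GENCODE starts of Actg1 and 0610009L18Rik lie 135 bases (chr11:120348543-120348677, plus strand). The capitals mark a GR half-site and a CArG box, the motif of serum response factor. The 30 bases of Actc1 (chr2:114052903-114052932, minus strand) are those around its CArG box, in capitals, at -47 to -38 from its RefSeq start. RefSeq and GENCODE differ on where Actc1 starts. The whole RefSeq window of Actc1 (chr2:114052826-114053125) lies inside the GENCODE gene (chr2:114047282-114053548). Motif positions from the RefSeq start therefore cannot be combined with the GENCODE distance between Actc1 and C130080G10Rik.
C130080G10Rik: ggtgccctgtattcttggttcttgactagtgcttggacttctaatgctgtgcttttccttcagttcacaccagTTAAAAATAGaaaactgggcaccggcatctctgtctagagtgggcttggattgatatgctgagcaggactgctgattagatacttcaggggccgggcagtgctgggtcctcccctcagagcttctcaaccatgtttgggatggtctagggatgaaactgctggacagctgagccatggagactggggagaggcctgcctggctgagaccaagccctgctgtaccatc
0610009L18Rik: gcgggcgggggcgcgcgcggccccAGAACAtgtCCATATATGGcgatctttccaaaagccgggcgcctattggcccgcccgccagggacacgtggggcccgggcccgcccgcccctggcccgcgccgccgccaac
Actc1: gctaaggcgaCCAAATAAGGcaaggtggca

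The windows of 0610009L18Rik and Actg1 share 282 positions, read from opposite strands. The CArG box CCATATATGG lies at -102 to -93 from the RefSeq start of the lncRNA and at -90 to -81 from that of Actg1. The RefSeq start of Actg1 lies inside its GENCODE gene, so positions from it cannot be combined with the 135 bases between the GENCODE starts. The RefSeq and GENCODE starts of 0610009L18Rik are the same base, chr11:120348678, so positions from the lncRNA can be. The GR half-site AGAACA lies at -111 to -106 from the lncRNA. Motifs were searched on both strands of 32817 RefSeq windows of this length, of which 1.63% held a CArG box, 3.19% a MEF2 box and 18.97% the letters AGAACA, and the longer motifs do not overlap the half-site in these windows. A match describes these letters and is not a binding site. For B230312C02Rik and Gm12199, which have no entry in the table of promoter windows used, the first exon is given from the annotated transcript (GENCODE, GRCm38), since it marks where transcription starts upstream of the microRNA genes and within Adamts2. Exon 1 of B230312C02Rik is chr2:180385773-180385885 and that of Gm12199 is chr11:50718706-50718915, both on the minus strand.
B230312C02Rik: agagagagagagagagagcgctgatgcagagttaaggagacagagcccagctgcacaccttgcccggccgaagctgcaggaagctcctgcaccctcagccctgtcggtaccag
Gm12199: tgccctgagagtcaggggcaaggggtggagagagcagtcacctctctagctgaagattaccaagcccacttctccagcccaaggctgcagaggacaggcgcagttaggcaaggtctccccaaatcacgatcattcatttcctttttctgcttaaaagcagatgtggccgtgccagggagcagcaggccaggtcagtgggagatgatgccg

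Each mouse had 20904150 to 21984477 counts on genes, so depth was nearly even. Levels are given in CPM, the counts divided by the library size after TMM scaling. In these libraries 3 counts are 0.119 to 0.166 CPM, which limits what can be said of the lowest values. Genes were tested where more than 20 normalized counts were found in at least 4 mice of a group, and 13049 genes passed. C130080G10Rik and Gm12199 passed through their vehicle groups only, since 0 of 11 corticosterone mice reached 20 normalized counts. Treatment could be seen at known GR targets, where Fkbp5 (an inhibitor of GR) rose by log2 fold changes (log2FC) of 3.36 in males and 3.05 in females (edgeR's quasi-likelihood test, adjusted p = 6.73e-08 and 1.77e-06). Of 12 listed GR targets 11 rose in males and 6 in females, where 26.3% and 13.4% of all tested genes were called in either direction. Myofibre markers (8 of 8 tested) summed to 72055 to 186732 CPM in every mouse, as the label muscle says. Hepatocyte markers were highest in M8 (2251 CPM) and F10 (2221 CPM), and without these mice the log2FC of the 4 lncRNAs moved by less than their standard errors (SE). The RNA is that of whole muscle, so fewer cells of a type and less RNA per cell cannot be told apart.

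C130080G10Rik, the divergent partner of Actc1, was chosen for its lower level with corticosterone. In females its fitted log2FC was, as a description only, the lowest of all 13049 tested genes. That order rests on F1, since without F1 it was -3.99 against -4.45 for B230312C02Rik, and on the tool, since limma-voom gave -4.44 against -4.66. C130080G10Rik ranged from 1.10 to 20.2 CPM in vehicle females (25 to 413 counts, median 102), a spread of 18.3-fold between animals of 1 group. The 5 corticosterone females had 0.136, 0.385, 0.283, 0.344 and 0.159 CPM, which are 3, 8, 7, 7 and 4 counts. Every treated female was therefore below every vehicle female, by a gap of 2.86-fold between the nearest mice. In males the vehicle range was 0.402 to 2.30 CPM (9 to 48 counts, median 27.5) and the corticosterone range 0 to 0.377 CPM (0 to 7 counts, median 5). These groups did not overlap either, but the gap was 1.06-fold, between M11 with vehicle and M2 with corticosterone. The fitted log2FC was -4.69 (SE 0.69) in females and -2.79 (SE 0.68) in males. Treated means were 3.82% of the vehicle mean in females and 13.95% in males. The mean of treated mice was 0.262 ± 0.110 CPM in females (SD, n = 5) and 0.194 ± 0.147 CPM in males (SD, n = 6), near the worth of 3 counts. With vehicle it was 6.85 ± 6.88 CPM in females and 1.39 ± 0.747 CPM in males (SD, n = 6 each).

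B230312C02Rik, the lincRNA next to the microRNA cluster, had the highest level per exon length of the 4 in vehicle females (26.1 CPM per kb), where it ran from 25.2 to 78.8 CPM (588 to 1785 counts, median 908.5). The corticosterone females had 1.55, 3.71, 1.78, 2.41 and 1.35 CPM, the counts being 34, 77, 44, 49 and 34. This was the widest gap of the 4 in females, with 6.80-fold between the lowest vehicle and the highest treated mouse. Vehicle males were uneven, with 1.59, 2.64, 4.68 and 8.26 CPM in M5, M3, M1 and M11 and 30.3 and 39.8 CPM in M7 and M9. Corticosterone males had 1.25 to 3.61 CPM (25 to 78 counts, median 42.5). The male groups overlapped, since 4 of 6 vehicle mice lay above all treated mice and 1 of 6 treated mice lay below all vehicle mice. In females the log2FC was -4.37 (SE 0.68). In males it was -2.67 (SE 0.60), and without M9 it was -2.06 in males. The mean of treated mice was 2.16 ± 0.954 CPM in females (SD, n = 5) and 2.28 ± 0.773 CPM in males (SD, n = 6).

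Gm12199, the transcript inside Adamts2, had vehicle means of 2.78 ± 1.43 CPM in females and 3.09 ± 2.103 CPM in males (SD, n = 6 each). It was chosen for its fall, so its place as the lncRNA with the lowest log2FC in males is a description only. Vehicle mice had 1.24 to 5.49 CPM in females (29 to 116 counts, median 54) and 0.972 to 5.83 CPM in males (19 to 122 counts, median 52). The 5 corticosterone females had 0.273, 0.241, 0.242, 0.197 and 0.0397 CPM, from 6, 5, 6, 4 and 1 counts. Corticosterone males had 0.0441 to 0.324 CPM from 1 to 7 counts, with a median of 3 counts. The groups did not overlap in either sex, with a gap of 4.56-fold in females and 2.999-fold in males. Its log2FC was -3.78 (SE 0.55) in females and -4.26 (SE 0.54) in males. All treated females together gave 22 counts (95% Poisson interval 13.8 to 33.3) against 360 in the vehicle females, and all treated males 19 counts (11.4 to 29.7) against 392, intervals that cover counting error only.

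0610009L18Rik, the divergent partner of Actg1, was the steadiest of the 4 and fell least. Vehicle mice had 13.3 to 19.3 CPM in females (272 to 438 counts, median 324.5) and 15.0 to 24.56 CPM in males (337 to 503 counts, median 448). Corticosterone males had 10.6 to 14.1 CPM (237 to 282 counts, median 242.5), all below the lowest vehicle male by 1.07-fold. The corticosterone females had 9.28, 16.6, 9.78, 14.4 and 8.27 CPM from 204, 344, 242, 293 and 208 counts. Of these, 3 of 5 lay below all vehicle females and F4 and F8 lay within the vehicle range. Males had a log2FC of -0.75 (SE 0.15) and females of -0.39 (SE 0.16), treated means being 59.3% and 76.3% of the vehicle means. The vehicle values vary with a coefficient of variation of 14.9% in females and 17.2% in males, against 42.4% to 112% for the other lncRNAs.

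**Figure D2:**
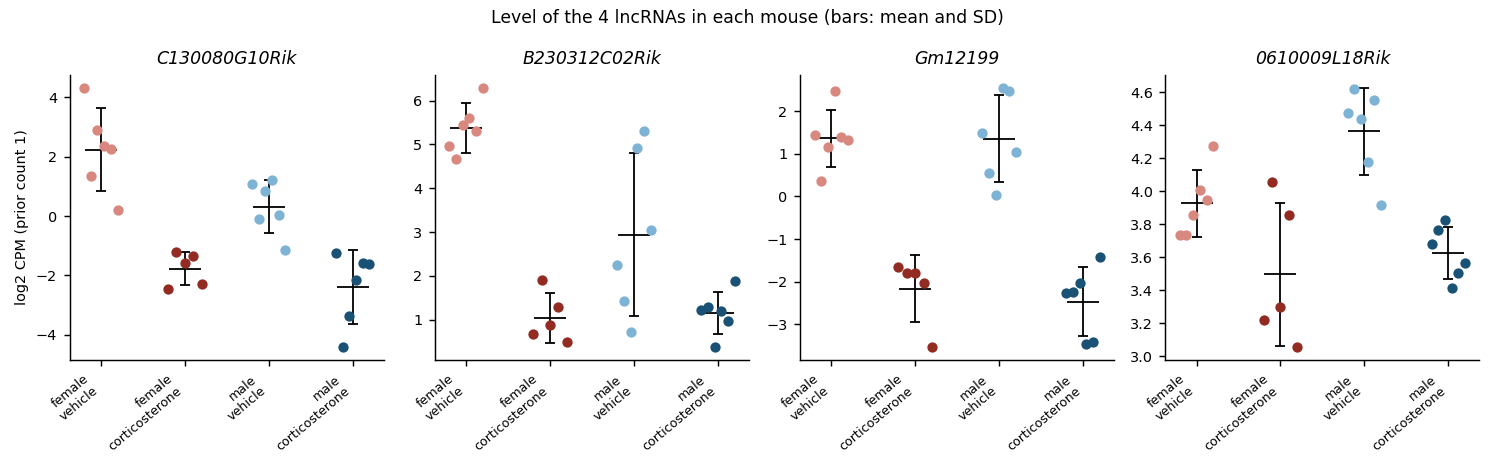
Each point is a mouse, by group (6 vehicle females, 5 corticosterone females, 6 vehicle males, 6 corticosterone males), on a scale of log2 CPM with a prior count of 1 that differs between panels. Bars give the mean and SD of the group. The treated points of C130080G10Rik and Gm12199 lie below all vehicle points in both sexes, vehicle males spread widest for B230312C02Rik, and treated females overlap vehicle females for 0610009L18Rik.

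Groups of 1 sex that did not overlap in this direction were found for 3 of the 4 lncRNAs in either sex. Over all tested genes 4.34% did so in females and 11.1% in males, and since the lncRNAs were chosen on this difference nothing is read from the share. Among 596 tested lncRNA genes, C130080G10Rik, B230312C02Rik and Gm12199 had the 1st, 2nd and 3rd lowest log2FC in females, and these were also the 3 lowest of all 13049 genes. In males they were 7th, 10th and 1st among lncRNA genes and 56th, 70th and 13th among all genes. 0610009L18Rik was 137th of 596 in females and 87th in males. The lncRNAs were chosen on this difference, and C130080G10Rik and Gm12199 passed the filter through their vehicle groups only. These ranks are therefore a description, and nothing is read from them. A log2FC below -2 in both sexes was found for 8 of 596 lncRNA genes and 34 of all tested genes. LncRNA genes as a class moved in both directions. In males 95 rose and 67 fell at an adjusted p under 0.01 (median log2FC of all 596: 0.09), which is 27.2% against 26.3% of all tested genes. In females 41 rose and 41 fell (median 0.01), which is 13.8% against 13.4% of all genes (edgeR, adjusted by the Benjamini-Hochberg method).

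**Figure D3:**
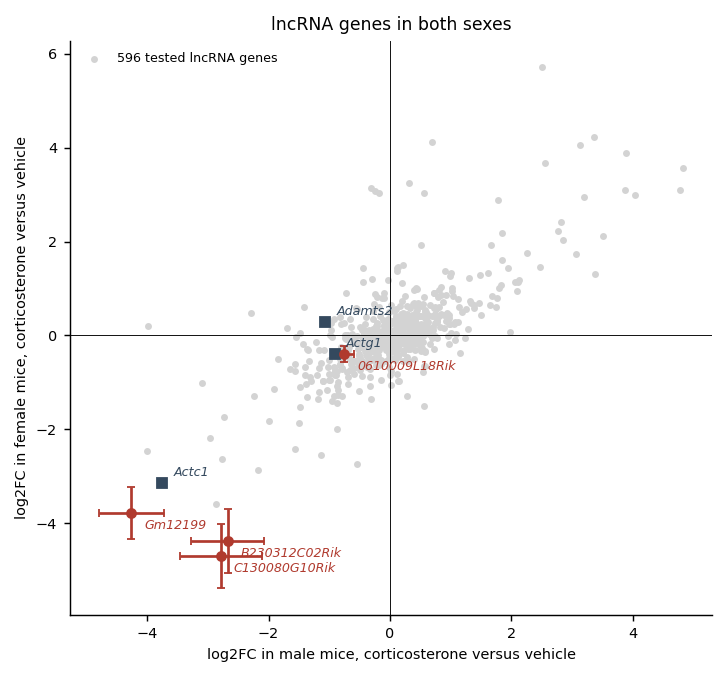
Each grey point is 1 of 596 tested lncRNA genes, with log2FC in males on the x axis and in females on the y axis. The 4 lncRNAs are in red with their SE and the genes Actc1, Actg1 and Adamts2 are blue squares. C130080G10Rik, B230312C02Rik and Gm12199 are the lowest points of the female axis, while 0610009L18Rik and Actg1 lie close to each other near the bulk. The 4 lncRNAs were chosen for lower levels, so nothing is read from their place.

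Of 30 named lncRNAs listed for comparison, 23 were tested. In males 6 rose (Neat1, H19, Snhg1, Snhg12, Peg13, Dleu2) and 2 fell (Meg3, Rian), and in females Peg13 rose and Meg3 fell. Over all tested genes 26.3% were called in males and 13.4% in females, and nothing is read from the counts of this list. The imprinted lncRNA Meg3 had a log2FC of -0.87 in males (SE 0.19) and -0.75 in females (SE 0.20; edgeR, adjusted p = 0.00124 and 0.00867). Peg13, also imprinted, rose by 1.79 and 1.01 (edgeR, adjusted p = 7.15e-09 and 2.46e-05). H19, an imprinted lncRNA of fetal and regenerating muscle, rose by 1.75 in males (edgeR, adjusted p = 5.42e-05) and had a log2FC of 0.61 in females (adjusted p = 0.124).

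The protein-coding neighbours were not part of the stated reason for choosing the lncRNAs, so their response was tested. Earlier results of these data were known at that choice, and each lncRNA and its neighbours were measured in the same mice. The shares of the nearest genes are therefore not independent of the choice. Of 9 nearest protein-coding genes 7 passed the filter. In males 3 fell (Actc1, Actg1, Adamts2) and 1 rose (Aqr) at an adjusted p under 0.01, 57.1% of the 7 against 26.3% of all genes. In females Actc1 alone passed and fell, 14.3% against 13.4% of all genes, while DESeq2 and limma-voom each called 3 of these 7 in females. Within 200 kb, 27 of 36 protein-coding genes in the table were tested, of which 3 rose and 3 fell in males and 3 rose and 1 fell in females. That is 22.2% and 14.8%, with medians of -0.04 in both sexes, near the share over all genes. Genes farther off that passed had positive values. In males these were Hgs (an endosomal sorting protein, log2FC 1.08, SE 0.13, edgeR's adjusted p = 2.10e-06) and Rps21 (a ribosomal protein, 0.60, SE 0.12, adjusted p = 0.000438). In females Slc38a10 (an amino acid transporter, 0.76, SE 0.15, edgeR's adjusted p = 0.00103) and Bahcc1 (a chromatin reader, 0.69, SE 0.15, adjusted p = 0.00171) passed. Slc25a10 (the mitochondrial dicarboxylate carrier) also passed in females, with a wide SE (2.51, SE 0.66, edgeR's adjusted p = 0.00756). In males Slc25a10 had 0.55 (SE 0.63, edgeR's adjusted p = 0.514). Gata5 and Slco4a1, the nearest genes to B230312C02Rik, had 4 and 113 counts over all 23 mice and were not tested.

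**Figure D4:**
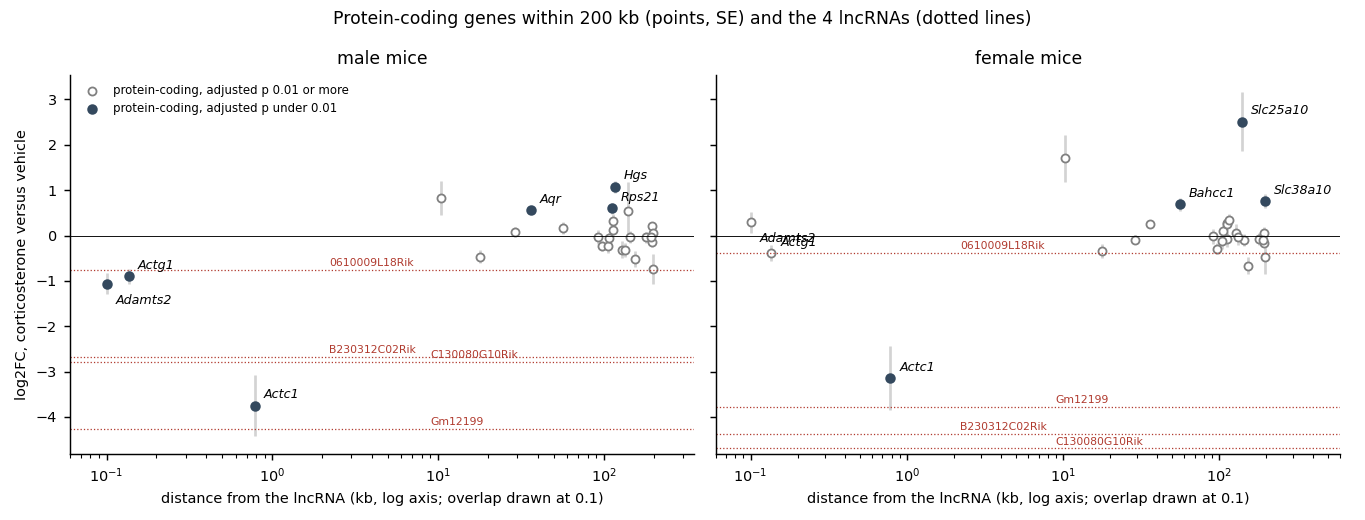
Points are the 27 tested protein-coding genes within 200 kb of a lncRNA, by distance in kb on a log axis and by log2FC with SE, in males and females, and filled points passed an adjusted p of 0.01 (edgeR). Dotted red lines are the log2FC of the 4 lncRNAs, and Actc1, at 787 bp, is the only point below -2.

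Actc1 fell with C130080G10Rik in both sexes. Vehicle females had 872 to 4687 CPM (mean 2616 ± 1298, SD, n = 6), and corticosterone females 89.4, 1113, 65.2, 144 and 68.0 CPM. Vehicle males had 250 to 990 CPM and corticosterone males 19.03 to 80.6 CPM. The male groups did not overlap, while in females F4 stayed within the vehicle range. The log2FC of Actc1 was -3.75 in the males (SE 0.68) and -3.14 in the females (SE 0.71; edgeR's quasi-likelihood test, adjusted p = 0.000185 and 0.00283). In F4, the mouse with 1113 CPM of Actc1, C130080G10Rik was at 8 counts, the highest of the treated females (3 to 8 counts) and below every vehicle female. Without F4 the log2FC of Actc1 in females was -4.83, and with each sex fitted alone its adjusted p was 0.0279. The lncRNA was a small fraction of Actc1 in all groups. Per exon length, its median level was 0.108% of that of Actc1 in vehicle females and 0.148% in vehicle males, and 0.146% and 0.332% with corticosterone, where few counts carry the value.

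The levels of C130080G10Rik and Actc1 were also compared between mice of 1 group, in 27 relations between the lncRNAs, and between them and their neighbours, chosen with the values known. In vehicle females r was 0.964 (n = 6, exact permutation test, two-sided p = 0.00833, adjusted over 27 relations 0.0875) and rho was 0.771 (exact permutation p = 0.103, adjusted 0.694). In vehicle males r was 0.845 (n = 6, exact permutation p = 0.0389, adjusted 0.263) and rho 0.714 (exact permutation p = 0.136, adjusted 0.735). Without the 2 mice farthest from the median of C130080G10Rik, r was 0.869 in vehicle females and 0.786 in vehicle males. In corticosterone males, with 0 to 7 counts of the lncRNA, r was 0.01 (exact permutation p = 0.972, adjusted 0.992; rho 0.0857, p = 0.919, adjusted 0.955) and 0.689 without the 2 farthest mice. None of the 27 relations passed an adjusted p of 0.05, and corticosterone females were not among the groups compared. The smallest adjusted p, 0.0875 (exact permutation test), was shared with pairs that are not neighbours. These were B230312C02Rik with 0610009L18Rik in vehicle females (r 0.957, rho 0.943) and with Gm12199 in vehicle males (r 0.956, rho 0.886). Between Gm12199 and Adamts2 r was -0.555 in vehicle females, -0.736 in vehicle males and 0.407 in corticosterone males (n = 6 each). Exact permutation p was 0.231, 0.0764 and 0.419 in that order, adjusted 0.692, 0.4125 and 0.758. In the same order rho was -0.486, -0.886 and 0.429 (exact permutation p = 0.356, 0.0333 and 0.419, adjusted 0.889, 0.3 and 0.889). Without the 2 mice farthest from the median of Gm12199, r was -0.571, -0.707 and -0.471.

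Actg1, the partner of 0610009L18Rik, fell in males and had a negative log2FC in females that did not pass. It had 71.5 to 124 CPM in vehicle males and 36.1 to 66.8 CPM in corticosterone males, which did not overlap (log2FC -0.90, SE 0.16, edgeR's adjusted p = 0.000178). In females the vehicle range was 82.4 to 119 CPM and the treated mice had 75.2, 66.2, 104, 51.5 and 74.4 CPM, of which F6 lay within it (log2FC -0.39, SE 0.17, edgeR's adjusted p = 0.0944). The treated females that overlapped were F4 and F8 for the lncRNA and F6 for Actg1, so they were different animals. Within groups r between the 2 genes was -0.263 in vehicle females, -0.162 in vehicle males and 0.461 in corticosterone males (n = 6 each, exact permutation p = 0.610, 0.708 and 0.378, adjusted 0.832, 0.832 and 0.758; rho -0.257, -0.257 and 0.257, p = 0.658 for each, adjusted 0.889). Without the 2 mice farthest from the median of 0610009L18Rik these r were -0.0367, -0.577 and 0.839. Per exon length 0610009L18Rik was at a median of 53.0% to 89.8% of Actg1 in the 4 groups, unlike C130080G10Rik beside Actc1.

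Adamts2, the host gene of Gm12199, fell in males, while in females, where Gm12199 was also lower, it did not pass the test. Vehicle males had 15.9 to 31.1 CPM and corticosterone males 10.3 to 13.2 CPM (log2FC -1.06, SE 0.23, edgeR's adjusted p = 0.000885). Vehicle females had 13.0 to 32.9 CPM and the treated females 26.7, 24.04, 37.3, 10.1 and 25.9 CPM, which overlapped (log2FC 0.29, SE 0.23, edgeR's adjusted p = 0.382). The difference between the sexes, tested as the interaction, was -1.35 on the log2 scale (SE 0.33, edgeR's adjusted p = 0.0174), which missed the threshold. Of the 7 neighbours, 0 passed for the interaction with edgeR (4 had an unadjusted p under 0.05, and DESeq2 and limma-voom each called 2), against 0.690% of all genes. Gm12199 itself fell in both sexes, so that its median level per exon length went from 258% to 18.1% of Adamts2 in females and from 181% to 25.6% in males. Fibroblast markers (5 of 5 tested, none at 0 in any group) summed to 747 to 1073 CPM in vehicle males and 309 to 470 CPM in corticosterone males, and to 677 to 1430 and 480 to 884 CPM in females. Col3a1 and Lum fell in both sexes and Col1a1 in males. Their part in the values of Adamts2 and Gm12199 was not tested.

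**Figure D5:**
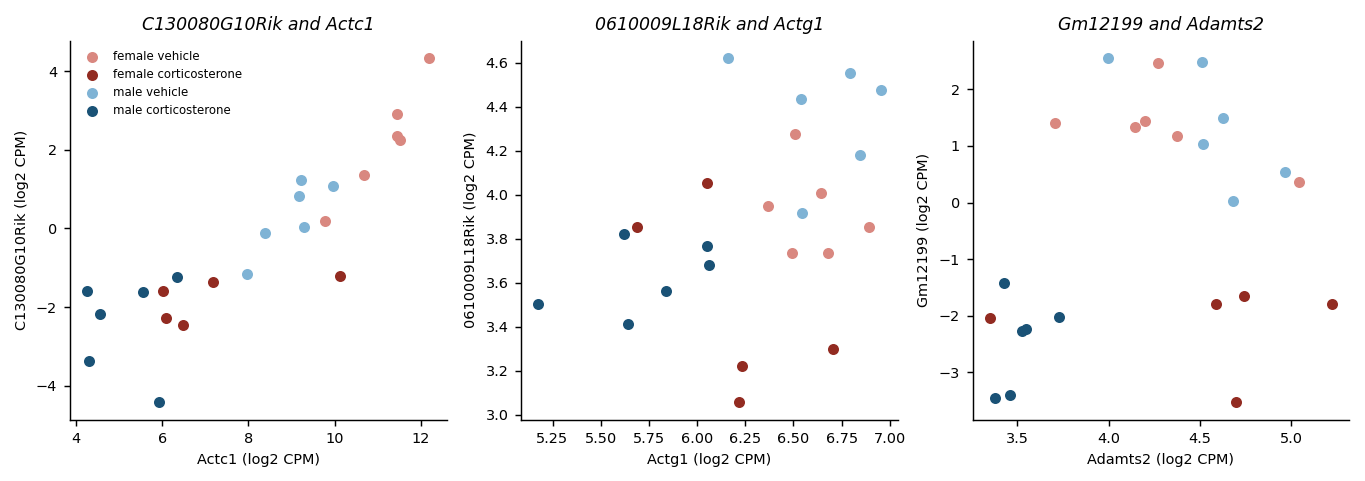
Each point is a mouse, with the protein-coding neighbour on the x axis and the lncRNA on the y axis, both in log2 CPM with a prior count of 1, and colours give the 4 groups. C130080G10Rik and Actc1 had r of 0.964 in vehicle females and 0.845 in vehicle males, F4 (dark red, at the right) had 1113 CPM of Actc1 and 0.385 CPM of the lncRNA, and treated males scattered, 0610009L18Rik and Actg1 scatter, and Gm12199 separates treated from vehicle mice at any level of Adamts2.

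The other neighbours moved little or upward. Aqr, an RNA helicase of the spliceosome on the far side of C130080G10Rik, rose by 0.56 in males (SE 0.07) and had a log2FC of 0.25 in females (SE 0.08) (edgeR, adjusted p = 4.25e-06 and 0.0165). Fscn2, an actin-bundling protein next to 0610009L18Rik, had 0.82 in males and 1.71 in females (edgeR, adjusted p = 0.0814 and 0.0190). Rufy1, an endosomal protein, had 0.17 and -0.23 (edgeR, adjusted p = 0.0563 and 0.0240) and Zfp354c, a zinc finger protein beside Adamts2, -0.03 and -0.02 (adjusted p = 0.910 and 0.940). Mir133a-2, singled out after its values were seen, is upstream of B230312C02Rik. Reads counted over it stem from longer polyadenylated RNA and not from the mature microRNA. It had 6.93 to 12.6 CPM in vehicle females and 4.18, 4.29, 3.19, 8.66 and 2.86 CPM in corticosterone females (log2FC -1.02, SE 0.25, edgeR's adjusted p = 0.00571). In males it had 6.22 to 7.68 CPM with vehicle and 3.75 to 10.6 CPM with corticosterone (log2FC -0.06, SE 0.24, edgeR's adjusted p = 0.851), while the interaction had an adjusted p of 0.0694.

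Among the 6 actin genes, Actc1 fell in both sexes and Actg1 and Actb (cytoplasmic beta-actin) fell in males. Acta1, the actin of adult skeletal muscle, had log2FC of 0.09 in males and -0.16 in females (edgeR, adjusted p = 0.725 and 0.564). Acta2, of smooth muscle, and Actg2, of gut smooth muscle, did not pass in either sex. Satellite cells are the stem cells of muscle, and their markers (3 of 3 tested) summed to 4.45 to 8.40 CPM in vehicle females and 1.17 to 3.90 CPM in corticosterone females, and to 5.66 to 8.29 and 2.43 to 3.99 CPM in males. Pax7, Myf5 and Calcr fell in females and Calcr in males, and none of them was at 0 in a group. Among the other cell type lists, 3 of 4 erythrocyte markers and the neutrophil gene S100a8 rose and the myofibre gene Casq1 fell in both sexes. Tek (endothelial) fell in males and Lep (adipocyte) rose in females. Adipocyte markers (5 of 5 tested) summed to 50.3 to 1560 CPM in vehicle females and 24.8 to 3509 CPM in corticosterone females. In males they summed to 27.4 to 488 CPM with vehicle and 55.2 to 369 CPM with corticosterone. The median log2FC of these 5 genes was 2.67 in females and -0.08 in males. No marker of Schwann cells, macrophages, smooth muscle or hepatocytes passed in either sex, and lymphocyte markers, at up to 2.89 CPM in all, were too low to test. The part of these cell types in the levels of Actc1, Slc25a10 and the lncRNAs was not tested.

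Males and females with vehicle were compared because the choice of the lncRNAs did not use this contrast, though the same vehicle mice are the baseline of the falls. C130080G10Rik and Gm12199 also passed the filter through their vehicle groups only. The vehicle values are therefore not independent of the choice and the filter, and nor are these tests. C130080G10Rik was lower in vehicle males than in vehicle females by -2.29 on the log2 scale (SE 0.54, edgeR's adjusted p = 0.0228), which missed the threshold of 0.01. B230312C02Rik had -1.61 (SE 0.55, edgeR's adjusted p = 0.144), 0610009L18Rik 0.44 (SE 0.15, adjusted p = 0.155) and Gm12199 0.16 (SE 0.40, adjusted p = 0.928). Of the 4, 0 passed with edgeR (3 had an unadjusted p under 0.05), 1 with DESeq2 and 1 with limma-voom, against 0.958% of all tested genes. The neighbour Actc1 had -2.22 (SE 0.64, edgeR's adjusted p = 0.0692). Leaving out F1, with 20.2 CPM of C130080G10Rik, gave -1.59 for that lncRNA (edgeR's adjusted p = 0.0904), and leaving out M9 gave -2.22 for B230312C02Rik (adjusted p = 0.0308). With corticosterone the means of the 2 sexes are given side by side (0.262 and 0.194, 2.16 and 2.28, 0.199 and 0.157, and 11.7 and 12.3 CPM in females and males, in the order of the values per mouse given above). Whether the sexes were processed together is not given in the sources used here, so a batch of 1 sex and the sex cannot be told apart in these contrasts.

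In order of level per exon length in vehicle mice, B230312C02Rik (26.1 CPM per kb) and 0610009L18Rik (24.7) led in females, followed by Gm12199 (5.38) and C130080G10Rik (2.65). B230312C02Rik and 0610009L18Rik did not differ beyond their spread there, nor did Gm12199 and C130080G10Rik. In vehicle males 0610009L18Rik (33.6 CPM per kb) stood above B230312C02Rik (8.53), Gm12199 (5.98) and C130080G10Rik (0.539), of which B230312C02Rik and Gm12199 did not differ beyond their spread. With corticosterone 0610009L18Rik led in both sexes at 18.8 and 19.9 CPM per kb, B230312C02Rik stood at 1.27 and 1.34, and Gm12199 and C130080G10Rik stood at 0.384 and 0.101 in females and 0.304 and 0.0752 in males.

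The genes whose log2 CPM was most like that of each lncRNA over the 23 mice are named as a description only, since the groups differ and drive these values. For C130080G10Rik these were Dock4 (Pearson r 0.889), Actc1 (0.885) and Pfn1 (profilin, 0.880), so Actc1 was 2nd among all tested genes. For B230312C02Rik they were Rtkn (0.904), Rhobtb1 (0.899) and Aimp2 (0.893). For Gm12199 they were Jarid2, a chromatin protein of the Polycomb group (0.956), Dynll2, a dynein light chain (0.952), and Gpr180 (0.942), while its host Adamts2 was 3625th (0.325). For 0610009L18Rik they were Gm12224, an antisense gene (0.899), Pip5k1a (0.895) and Asb10 (0.891), while Actg1 was 2566th (0.406). After group means were subtracted, the closest were Vps8, Mdn1 and Elac1 for C130080G10Rik (0.781, 0.713 and 0.695), with Actc1 80th at 0.491. They were Obsl1, Cpeb1 and Gm33543 for B230312C02Rik (0.868, 0.829 and 0.824), Myhas, an antisense gene of the myosin heavy chain cluster, Msrb3 and Cgref1 for Gm12199 (0.812, 0.803 and 0.803), and Ttc32, Gmpr and Uckl1os for 0610009L18Rik (0.810, 0.791 and 0.756). Among the lncRNAs themselves, B230312C02Rik and Gm12199 were the pair most alike after this step (0.680), and M7 and M9, the vehicle males high in B230312C02Rik, were also the males highest in Gm12199 (5.83 and 5.55 CPM). The other pairs lay between -0.0518 and 0.263.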

How the data were processed

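Quadriceps RNA of 23 mice was sequenced as stranded, mRNA-enriched 100 bp paired-end libraries, 1 library per mouse. The authors aligned reads to mm10 with STAR 2.7.3a, counted read pairs per Ensembl gene (release 97) with HTSeq 0.12.4 using the reverse strand, and deposited these counts without normalization. Reads not assigned to a gene (10.7% to 15.3% per mouse) were left out. No near-duplicate libraries were found.

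Counts were fitted with edgeR 4.0.16 (quasi-likelihood test, TMM factors, R 4.3.3) in 1 model with a mean for each sex and treatment, without covariates. Genes needed more than 20 normalized counts (median of ratios) in at least 4 mice of a group, and the threshold was 0.01 on Benjamini-Hochberg adjusted p-values. This differs from the authors' tool, DESeq2 (1.42.0 here), which served as an alternative with limma-voom (limma 3.58.1). The script was tested on simulated data. Log2 CPM used a prior count of 1. SE was the log2FC divided by the square root of F.

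GENCODE M21 (GRCm38) gave biotypes, positions and exon lengths, and 55394 of 55573 gene IDs matched. A neighbour is a protein-coding gene that overlaps a lncRNA or is the closest on either side, with a wider set within 200 kb. Named genes were the lncRNAs, these neighbours, the 3 genes most like each lncRNA, and gene lists (named lncRNAs, actins, GR targets, cell type markers). The lncRNAs and lists were chosen with earlier results of these data known. Mice of both sexes shared numbers within a treatment. Deviations from group means of same-numbered mice correlated between -0.377 and 0.477 over 11 pairs, 7 of them above 0.1. These values cannot decide whether the numbers pair mice, since mice of different numbers were not compared. The main model left the numbers out, and a fit with them as a block is given below.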

Additional observations from a re-analysis of the deposited data

Results flagged for a closer look

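In 11 genes (the 4 lncRNAs and their 7 tested neighbours), 3 of 44 groups of mice held a CPM value that stood apart from the rest of its group. Chance would mark about 1 in 20 groups of normally distributed values. Whether these CPM values are so distributed was not tested, so nothing is read from the count. C130080G10Rik was at 20.2 CPM in F1, the highest vehicle female, and F1 was also the highest vehicle female for Actc1 (4687 CPM). Gm12199 was at 5.49 CPM in F7, also the highest vehicle female for this gene. Actc1 was at 1113 CPM in F4, the highest corticosterone female, while C130080G10Rik in F4 was at 0.385 CPM.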

How the results depend on the processing

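The log2FC of the 4 lncRNAs in both sexes stayed negative in all 240 values from refits over tools, scalings, filters and mice left out. Each lncRNA in each sex had 23 values with 1 mouse left out and 7 from other settings. These refits share mice, and the lncRNAs were chosen for lower levels, so the values are not independent of each other or of that choice. With M9 left out B230312C02Rik in males was -2.06, and with limma-voom -1.97. With F1 left out C130080G10Rik in females was -3.99. The cause of these and the following changes was not tested. DESeq2 and limma-voom each called 3 neighbours in females and 2 for the interaction, and each called 1 lncRNA for the sexes under vehicle, C130080G10Rik with DESeq2 (adjusted p = 0.00225) and B230312C02Rik with limma-voom (adjusted p = 0.00435). With each sex fitted alone 45 lncRNA genes were called in females in place of 82, and 0 neighbours. With protein-coding genes within 200 kb, 4 were called in females. Requiring a log2FC beyond 1 in size left 95 lncRNA genes in males in place of 162.

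Leaving out each mouse in turn gave 53 to 108 lncRNA genes in females, 53 without F6, 131 to 163 in males, 0 to 2 neighbours in females and 4 in males in all 23 fits, 0 to 1 lncRNAs for the sexes under vehicle, and 0 to 2 neighbours for the interaction (1 without F3, 2 without F8). In females Actc1 missed the threshold without F2 (edgeR's adjusted p = 0.01005), and Fscn2 passed without F3 (0.00313), Aqr without F9 (0.00998) and Rufy1 without F8 (0.0049). C130080G10Rik passed for the sexes under vehicle without F11 (edgeR's adjusted p = 0.00636). Actc1 passed there without F4 (edgeR's adjusted p = 0.00459), and in females it missed the threshold without F10 and M8, the mice highest in hepatocyte markers (adjusted p = 0.01007).

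With the mouse number as a replicate block, possible only between the sexes, 0 lncRNAs and 0 neighbours were called. C130080G10Rik had -1.997 (edgeR's adjusted p = 0.0218), B230312C02Rik -2.39 (adjusted p = 0.0355 with edgeR), and Actc1 -2.18 (edgeR's adjusted p = 0.00701), which then passed. No paired analysis was possible within a sex because treated and vehicle mice share no numbers. Depth limits C130080G10Rik and Gm12199 with corticosterone, where single mice had 0 to 8 counts. Separate litters, cages or extraction days of the mice are not given in the sources used here.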
